A study of Mus musculus with 13 samples.

Results

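The cation chloride cotransporters and the Wnk kinase pathway were represented by 9 genes. They comprise the cotransporters Slc12a1, Slc12a2, Slc12a3 and Slc12a7, the kinases Wnk1 and Wnk4, the kinases Stk39 and Oxsr1, and the adaptor Klhl3. The genes were chosen by name, with earlier results of these data known, and every open chromatin peak that overlapped the gene body or the 2 kb upstream (mm10, GENCODE M21) was assigned to its gene. This gave 9 of the 32919 genes with a peak and 205 of the 300755 peaks. Single nuclei ATAC-seq (snATAC-seq) was performed on kidneys at P0 (2 samples), 3 weeks (P21, 1 sample) and 8 weeks (P56, 2 samples), and P21 and P56 were grouped as adult (n = 3). The P0 mice are described as 1-day-old in the sample protocol. No treatment or engineered allele is given for these samples, the study states wild type C57BL/6 mice for its companion scRNA-seq only, and sex and the number of animals per sample are not given in the sources used here. Nuclei carry the cluster names that the authors deposited, and 13 clusters were used.

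SLC12 transporters move chloride across the membrane together with sodium, potassium or both. Slc12a1 (NKCC2) and Slc12a3 (NCC) are the apical salt carriers of the thick ascending limb and of the distal convoluted tubule, and are the targets of loop and of thiazide diuretics. The Wnk kinases sense chloride and activate the kinases encoded by Stk39 (SPAK) and Oxsr1 (OSR1), which phosphorylate the sodium-coupled carriers, while Klhl3 is the substrate adaptor of a Cullin 3 ubiquitin ligase that degrades Wnk kinases. Mutations of WNK1, WNK4 and KLHL3 cause familial hyperkalemic hypertension.

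The 28316 nuclei gave 16980853 to 43794155 open calls per sample, and a sample held a median of 3371 to 6737 open peaks per nucleus. An open call is a nucleus with at least 1 fragment in a peak. Of 27834 barcodes, 472 occurred in 2 libraries and 5 in 3, and each was counted in every library that held it. Each cluster and sample formed 1 sum, with 39 to 2459 nuclei, and a level is given as CPM (counts per 1000000), the open calls in a gene's peaks scaled to the total open calls of that sum, or as the percentage of nuclei in which a peak was open. CPM is not scaled to gene length, so levels were compared between clusters and stages and not between genes. A share also moves with depth: the mean number of open peaks per nucleus was 7201 at P0 and 3845 in adult loop of Henle (LOH), 7293 and 4222 in the distal convoluted tubule (DCT), and 7183 and 4677 in the connecting tubule (CNT), and P56 sample 1 was the shallowest library. The clusters were built from the same nuclei and named partly from Slc12a1 and Slc12a3, so differences between clusters are a description without a test. With summed nuclei, fewer cells of a type and less open chromatin per cell cannot be told apart.

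The cluster names were checked with marker genes outside the pathway. Umod and Cldn16 were highest in LOH, and Pvalb and Trpm6 in DCT, at both stages, while Ptger3 was highest in LOH in adult samples but in IC (intercalated cells) at P0. Trpv5, Calb1 and Klk1 were highest in CNT in adult samples but in DCT at P0, and the cluster named NP (nephron progenitors) held none of its 3 markers as highest in adult samples. Aqp2 and Fxyd4 were highest in PC (principal cells) at both stages, but Scnn1g of the same list was highest in CNT. Ptprc and C1qb were highest in immune cells at both stages. Csf1r of the same list was highest there at P0 only. In adult samples it was highest in the straight proximal tubule (132.7 CPM, against 106.4 CPM in immune cells). All markers of podocytes, both proximal tubule clusters, IC, endothelial cells and stroma were highest in clusters of that name at both stages. The summed CPM of Umod, Cldn16 and Ptger3 in LOH was 83.8 and 87.3 at P0 and 262 to 314 in adult samples, and in IC it was 92.2 and 71.2 at P0 and 119 to 133 in adult samples. The summed CPM of the CNT markers in CNT was 70.6 and 86.9 at P0 and 278 to 416 in adult samples. The part of a changing cluster make-up in the stage differences below was not tested.

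**Figure D1:**
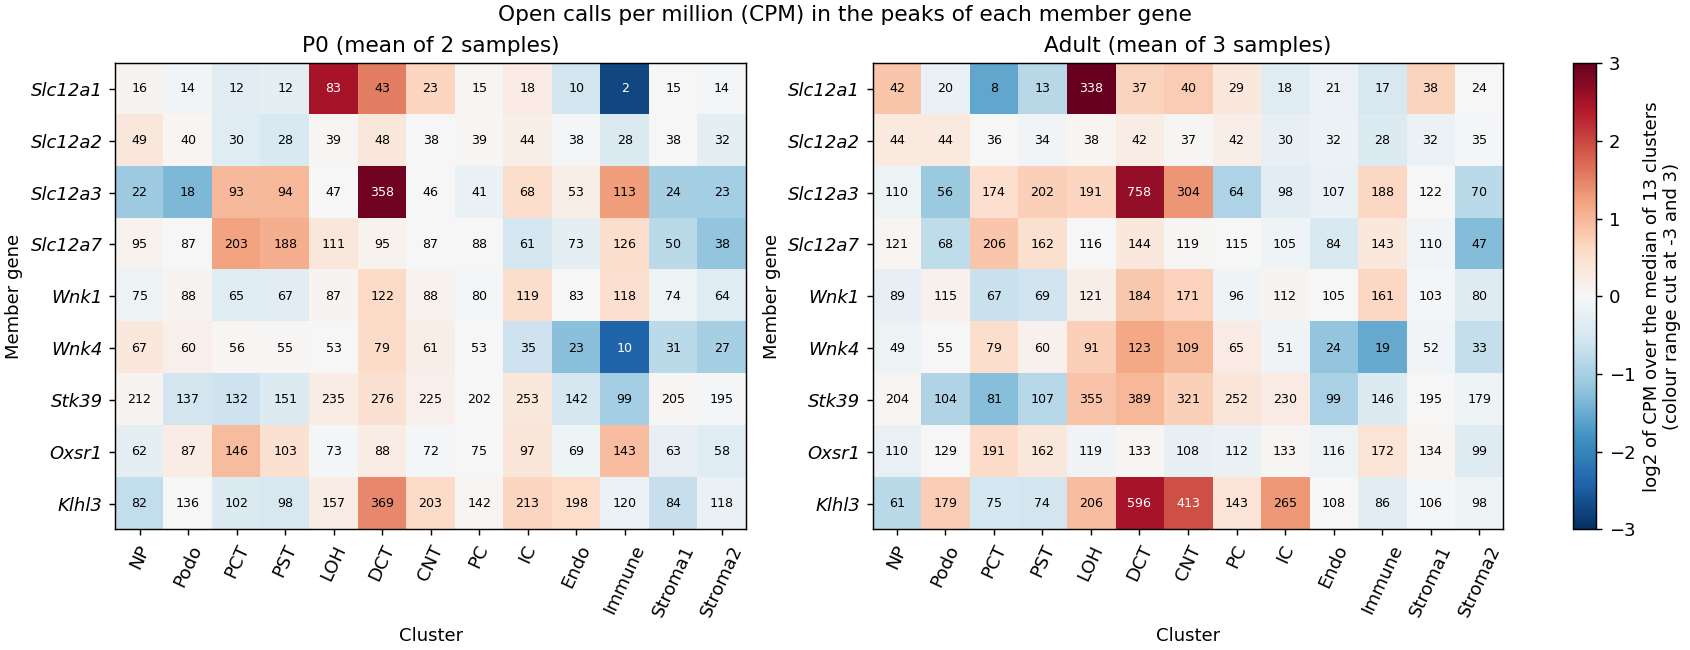
Level of each member gene in the 13 clusters, as the mean CPM of 2 P0 samples (left) and 3 adult samples (right). The number in a cell is the CPM, and the colour is the log2 ratio to the median cluster of that gene, cut at -3 and 3. Slc12a1 stands out in LOH, Slc12a3 and Klhl3 in DCT, Slc12a7 in PCT and PST, and Slc12a2 in no cluster.

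Slc12a1 (chromosome 2, 125152505 to 125230002, plus strand), the sodium, potassium and chloride carrier of the thick ascending limb, was open chiefly in LOH, and its level there rose between P0 and adult samples by log2 2.08. It held 17 peaks, of which 1 lay at the transcript start, 3 in exons and 13 in introns. 4 of the peaks also lie in the overlapping antisense gene Gm14002 and cannot be assigned to 1 gene. The 300 bases before its start (GRCm38/mm10, chr2:125152205-125152504, plus strand, RefSeq assembly) are shown because they lie in the start peak that followed LOH most closely. They have a GC content of 38.0%, and capitals mark the only match to the 3 motifs that were searched, the HNF1 motif TTAATNATT.
Slc12a1 upstream: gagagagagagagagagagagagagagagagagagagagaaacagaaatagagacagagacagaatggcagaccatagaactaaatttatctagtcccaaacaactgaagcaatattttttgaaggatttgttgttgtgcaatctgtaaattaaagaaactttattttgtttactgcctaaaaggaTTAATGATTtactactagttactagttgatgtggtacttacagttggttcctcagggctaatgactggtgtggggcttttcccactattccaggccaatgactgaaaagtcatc
The motifs were GCCNNNGGC (TFAP2), TCAAGGTCA (ESRR) and TTAATNATT (HNF1), searched on both strands. In the central 300 bases of all peaks they occurred in 8.99%, 0.853% and 2.45% of peaks, and in those of the members in 11.2%, 2.44% and 1.46%. A match is a description of the sequence alone.

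In LOH the Slc12a1 level was 72.9 and 94.1 CPM in the P0 samples and 380.0, 291.6 and 341.1 CPM in the P21 sample and P56 samples 1 and 2. The adult samples were all above the P0 samples, with a log2 change of 2.08 (SE 0.16, adjusted p = 6.96e-06, edgeR quasi-likelihood test with Benjamini-Hochberg adjustment over all genes, the test used for all adjusted p-values here). The estimate stayed between 1.95 and 2.26 under the alternatives. In DCT, the neighbouring segment, the P0 values of 42.2 and 44.2 CPM were second to LOH. The adult DCT values were 40.5, 37.5 and 34.3 CPM, which was not a significant change (log2 -0.34, adjusted p = 0.581). In adult samples LOH stood apart from every other cluster, and the next level was in the NP cluster (41.9 ± 18.1 CPM, SD, n = 3), which overlapped with that of CNT (40.1 ± 7.40 CPM).

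Of the 17 Slc12a1 peaks, 17 were most open in LOH among the clusters in adult samples (2.26% of all peaks), with a mean share of 2.30% to 31.5% of LOH nuclei. The start peak was open in 8.82% and 14.1% of LOH nuclei at P0 and in 34.8%, 16.6% and 43.2% in adult samples (log2 change of the open calls 2.53, SE 0.27, adjusted p = 3.32e-08). In DCT it was open in 7.84% and 7.02% of nuclei at P0 and in 0%, 0.65% and 3.46% in adult samples, too few calls for the test. Thus the start of Slc12a1 was open in a part of the DCT nuclei at P0 and was rarely seen open there in adult kidney. The P0 shares come from 51 and 57 DCT nuclei. Adult DCT nuclei held fewer open peaks (a mean of 4222, against 7293 at P0), and this contrast was not tested. The peak over exon 5 had the smallest p of the gene in LOH, with 2.21% and 3.99% at P0 and 11.4%, 7.01% and 14.6% in adult samples (log2 2.92, adjusted p = 1.95e-08). An intron peak 9828 bp after the start, chosen after its values were seen, was open in 13.7% and 12.3% of DCT nuclei at P0 and in 2.97%, 5.21% and 7.60% in adult samples. In LOH it was open in 9.13% and 13.04% of nuclei at P0 and in 19.0%, 10.3% and 18.0% later (log2 1.60, adjusted p = 7.16e-06). At P0 this peak was therefore about as open in DCT as in LOH. All 17 peaks were higher in adult LOH, by log2 1.42 to 4.02 (24.5% of all peaks were higher there).

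Slc12a1 was also higher in adult samples in the NP cluster (log2 1.20), PC (0.87) and Stroma1 (1.23). These calls were less stable. That in the NP cluster was lost without P0 sample 2 (log2 0.95, adjusted p = 0.0786), that in Stroma1 without P0 sample 1 (adjusted p = 0.119), P0 sample 2 (0.0697) or P56 sample 2 (0.155), and that in PC without P0 sample 1 (0.0598), P0 sample 2 (0.399), the P21 sample (0.0811) or P56 sample 2 (0.170). In the same clusters the LOH markers did not all move with it. Umod had mean levels of 14.6 CPM at P0 and 54.4 CPM in adult samples in NP. Its means were 3.37 and 15.5 CPM in PC and 2.39 and 20.2 CPM in Stroma1. The Umod mean was higher in adult samples in all 13 clusters. Cldn16 was higher in adult samples too, with 3.43 and 28.1 CPM in NP, 7.30 and 12.75 CPM in PC and 1.69 and 4.75 CPM in Stroma1. Ptger3 was not, with 31.1 and 27.3 CPM, 28.2 and 25.4 CPM, and 14.7 and 14.6 CPM. The part of tubule material in these clusters was not tested.

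**Figure D2:**
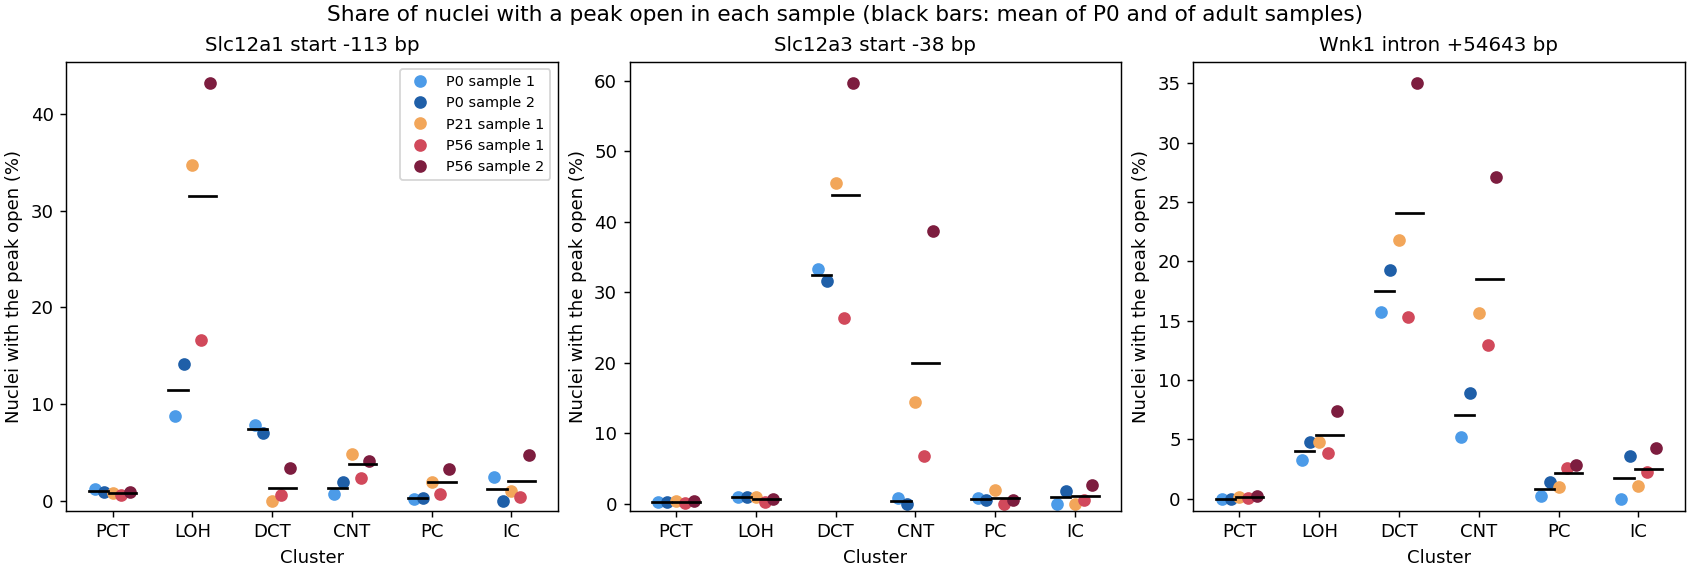
Share of nuclei (%, vertical axis) with the Slc12a1 start peak, the Slc12a3 start peak and the Wnk1 intron 4 peak open in each of 5 samples, in 6 tubule clusters (horizontal axis). Each point is 1 sample and black bars are the means of P0 and of adult samples. The Slc12a1 start is most open in LOH, where the adult samples reach 16.6% to 43.2%, the Slc12a3 start in DCT, and the Wnk1 peak in DCT and CNT.

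Slc12a3 (chromosome 8, 94329201 to 94366214, plus strand), the thiazide-sensitive sodium and chloride carrier, was most open in DCT at both stages and rose in most clusters. It held 15 peaks, with 2 at transcript starts, 10 in exons and 3 in introns, and 12 of the 15 were most open in DCT in adult samples (3.23% of all peaks), the other 3 in the proximal straight tubule (PST). Its upstream bases (chr8:94328809-94329108, plus strand, GRCm38/mm10) are shown beside those of Slc12a1, as the start of the other segment-defining carrier. They hold none of the 3 motifs and have a GC content of 53.0%. They end before the outermost RefSeq exon, short of the GENCODE start at 94329201.
Slc12a3 upstream: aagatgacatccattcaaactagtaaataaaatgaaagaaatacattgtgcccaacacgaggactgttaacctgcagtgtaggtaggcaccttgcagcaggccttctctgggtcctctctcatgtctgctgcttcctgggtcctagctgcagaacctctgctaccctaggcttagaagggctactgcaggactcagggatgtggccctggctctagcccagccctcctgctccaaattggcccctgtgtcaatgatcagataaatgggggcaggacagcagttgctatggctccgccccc
The start peak itself reaches into the gene, and its central 300 bases, unlike this window, hold a TFAP2 match.

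In DCT the Slc12a3 level was 339.8 and 375.8 CPM at P0 and 849.7, 792.0 and 633.7 CPM in adult samples (log2 0.98, SE 0.16, adjusted p = 1.67e-03). The summed CPM of the DCT markers Pvalb, Trpm6 and Calb1 in DCT was 224 and 241 at P0 and 507, 312 and 377 in adult samples. In CNT, which follows the DCT along the nephron, it was 39.9 and 52.9 CPM at P0 and 307, 228 and 375 CPM in adult samples, a log2 change of 2.67 (SE 0.22, adjusted p = 3.73e-07). The highest adult CNT value thus lay between the P0 values of DCT. The summed CPM of these DCT markers, of which Calb1 is also a CNT marker, moved with it in CNT, from 96.8 and 99.5 at P0 to 422, 304 and 333 in adult samples. That of the collecting duct markers (Aqp2, Fxyd4 and Scnn1g) was 102 and 99.5 in CNT at P0 and 91.5 and 97.1 in the PC cluster. In adult samples it was 148 to 171 in CNT and 200.5 to 253.3 in PC. Of these markers, Scnn1g was higher in CNT than in PC at both stages (means of 66.2 and 46.2 CPM at P0). Aqp2 and Fxyd4 were lower in CNT (19.8 and 15.0 CPM at P0) than in PC (26.0 and 22.1 CPM) at both stages. The part of cluster make-up in the DCT and CNT changes was not tested. In LOH the level was 48.6 and 45.7 CPM at P0 and 154.8, 188.8 and 230.5 CPM in adult samples (log2 2.10, adjusted p = 1.13e-05). The adult order was DCT (758 ± 112 CPM, SD, n = 3), CNT (304 ± 73.5 CPM) and PST (202 ± 16.2 CPM). After thinning of every nucleus to 1000 open peaks the DCT change was 0.51 and not significant (adjusted p = 0.390), while the CNT change stayed within 2.44 to 2.88 under the alternatives.

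Slc12a3 was higher in adult samples in 10 of 13 clusters, and 2 peaks carried a part of this. The longest peak of the gene, over its last exon (chromosome 8, 94362093 to 94366316), was chosen after its values were seen. It was open in 56.9% and 56.1% of DCT nuclei at P0 and in 49.5%, 83.4% and 28.6% in adult samples, and in 30.3% and 35.1% of immune nuclei at P0 and 24.4%, 30.9% and 29.7% later. The P56 samples thus disagreed in DCT, and in the opposite order to the start peak. Of all peaks, 19.3% had the higher DCT share in P56 sample 1, and none by more than this one (54.8 percentage points). Of the 4 peaks that came next in this difference, 2 lie on the mitochondrial genome. Without this peak the changes in LOH, DCT and CNT were log2 1.87, 1.00 and 2.83. Without it and the peak at the second start described below they were 1.01, 1.03 and 2.83, so the DCT and CNT changes kept their size and the LOH change was about that of DCT. In the NP cluster and Stroma1 the changes were then 1.35 and 1.68, against 2.23 and 2.26 with all peaks, and 9 of the 12 clusters that could be tested were called. The change in PST was lost without P0 sample 1 (log2 1.00, adjusted p = 0.0732) and after thinning (adjusted p = 0.148), and that in podocytes after thinning (0.520). The proximal marker Slc34a1 rose beside Slc12a3 in Stroma1, from a mean of 21.4 CPM at P0 to 71.4 CPM, and its part in the change of that cluster was not tested.

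At P0 the start peak was open in DCT and rarely in CNT. DCT was named partly from Slc12a3, so this contrast is not independent of the naming. The CNT markers were highest in DCT at P0. The start peak was open in 33.3% and 31.6% of DCT nuclei at P0 and in 45.5%, 26.4% and 59.7% in adult samples, with overlapping groups. In CNT it was open in 0.74% and 0% of nuclei at P0 and in 14.5%, 6.80% and 38.7% in adult samples. These are 1 of 236 CNT nuclei at P0 (0.424%, exact 95% interval 0.0107% to 2.34%) and 135 of 643 in adult samples. Per open call the adult level was 74.9 times that at P0, with an exact 95% interval of 13.2 to 2980 that covers counting error only. P56 sample 2 held most of the open adult nuclei: without it the count was 32 of 377 and the ratio 39.3 (6.56 to 1600.0), and without P0 sample 2 it was also 39.3. Over the samples the change was called (log2 5.65, SE 0.79, adjusted p = 3.65e-05, edgeR), with a range of 4.78 to 8.27 under the 9 alternatives that could test it, and the fitted size rests on the 1 open nucleus at P0. The DCT change of this peak was called (log2 0.97, SE 0.23, adjusted p = 0.0187) but was not stable: without P0 sample 1 the adjusted p was 0.309, without P0 sample 2 it was 0.308, with DESeq2 it was 0.176, and after thinning the estimate was -0.28 (adjusted p = 0.929).

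A second annotated start, that of the transcript Slc12a3-203 (a retained intron with no RefSeq start), lies 25450 bp after the first and behaved in another way. Its peak was open in DCT, with 33.3% of nuclei in both P0 samples and 35.6%, 25.4% and 54.2% in adult samples, and also in proximal tubule, with 26.5% and 30.4% of PST nuclei at P0 and 36.1%, 26.9% and 53.0% in adult samples. In LOH it rose from 8.03% and 11.2% to 28.2%, 21.7% and 51.9% (log2 2.91, adjusted p = 5.63e-09). In CNT it rose from 2.96% and 7.92% to 19.3%, 17.7% and 38.0% (log2 2.70). Both starts were thus open in DCT, and the second was open in PST and LOH too. At P0 the second was also open in 21.8% and 19.8% of PCT nuclei and in 22.5% and 23.2% of IC nuclei. Its largest changes were in Stroma1 (log2 4.22, adjusted p = 1.77e-08) and the NP cluster (log2 4.03, adjusted p = 7.39e-20). In the NP cluster it was open in 0.775% and 2.09% of nuclei at P0 and in 3.85%, 17.8% and 39.6% in adult samples. The adult NP sums hold 52, 90 and 53 nuclei, and none of the NP markers was highest in that cluster in adult samples. By count, 7 of 8 tested Slc12a3 peaks were higher in adult CNT, by log2 1.88 to 6.87 (11.7% of all peaks), and 2 of 12 in DCT (2.83% of all peaks).

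Slc12a2 (NKCC1, chromosome 18), which loads chloride into cells and lies on the basolateral side of epithelia, was open at an even level over the clusters. Its 6 peaks gave a mean of 28.2 to 48.6 CPM in the clusters at P0 and of 27.5 to 44.5 CPM in adult samples, and neighbouring clusters overlapped at the top of the order at both stages. The start peak was open in 21.3% and 27.2% of NP nuclei at P0 and in 18.8% and 16.2% of PCT nuclei. edgeR called no change between stages in the 12 clusters tested, with log2 values of -0.53 to 0.43. 1 cluster, PCT, had an unadjusted p under 0.05, and DESeq2 called none.

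Slc12a7 (KCC4, chromosome 13, 73733094 to 73816754, plus strand), which lets potassium and chloride leave the cell, was most open in the proximal tubule. Its level in the proximal convoluted tubule (PCT) was 194.3 and 211.6 CPM at P0 and 208.4, 195.1 and 214.7 CPM in adult samples. The PST values were 184.1 and 192.2 CPM at P0 and 174.1, 159.4 and 152.2 CPM later. Neither change passed (adjusted p = 0.282 and 0.472), and by CPM PCT ranked first and PST second at both stages. In adult samples PST overlapped with DCT (144.3 ± 27.9 CPM, SD, n = 3). By the share of nuclei with any peak open, PST came first at both stages. The start peak of the main transcripts, 30984 bp after the outermost annotated start, was broad, with 30.0% and 26.9% of PCT nuclei at P0 and 28.2%, 15.1% and 37.3% later. The first intron peak 37154 bp from the outermost start had the largest lead and was strongest in PST, with 45.8% and 48.2% of nuclei at P0 and 23.7%, 23.3% and 43.4% in adult samples.

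A peak in intron 17 of Slc12a7 closed in the proximal tubule after birth. It was open in 14.5% and 13.4% of PST nuclei at P0 and in 1.88%, 0.457% and 1.70% in adult samples (log2 -3.29, SE 0.57, adjusted p = 3.01e-03). Without P0 sample 1 the PST change was -3.15 (adjusted p = 0.120) and without P0 sample 2 it was -3.10 (adjusted p = 0.165). In PCT the peak fell from 5.48% and 5.93% to 1.23%, 0.732% and 1.39% (log2 -2.005, SE 0.35, adjusted p = 8.90e-04), a call kept by the 9 alternatives that could test it, which do not include thinning. In immune cells the same peak stayed open in 28.3% and 14.0% of nuclei at P0 and in 6.67%, 19.1% and 18.8% later. At the gene level Slc12a7 rose in Stroma1 (log2 1.01, adjusted p = 1.17e-04) and in PC (0.37). The PC call was lost without P0 sample 1 (log2 0.41), P0 sample 2 (0.30) or P56 sample 2 (adjusted p = 0.223). It was also lost with DESeq2 (0.25), no filter (0.0833), the replicate block (0.0782) and thinning (0.61). The proximal marker Slc34a1 rose in Stroma1 too, from a mean of 21.4 CPM at P0 to 71.4 CPM. Its part in the Slc12a7 change there was not tested.

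**Figure D3:**
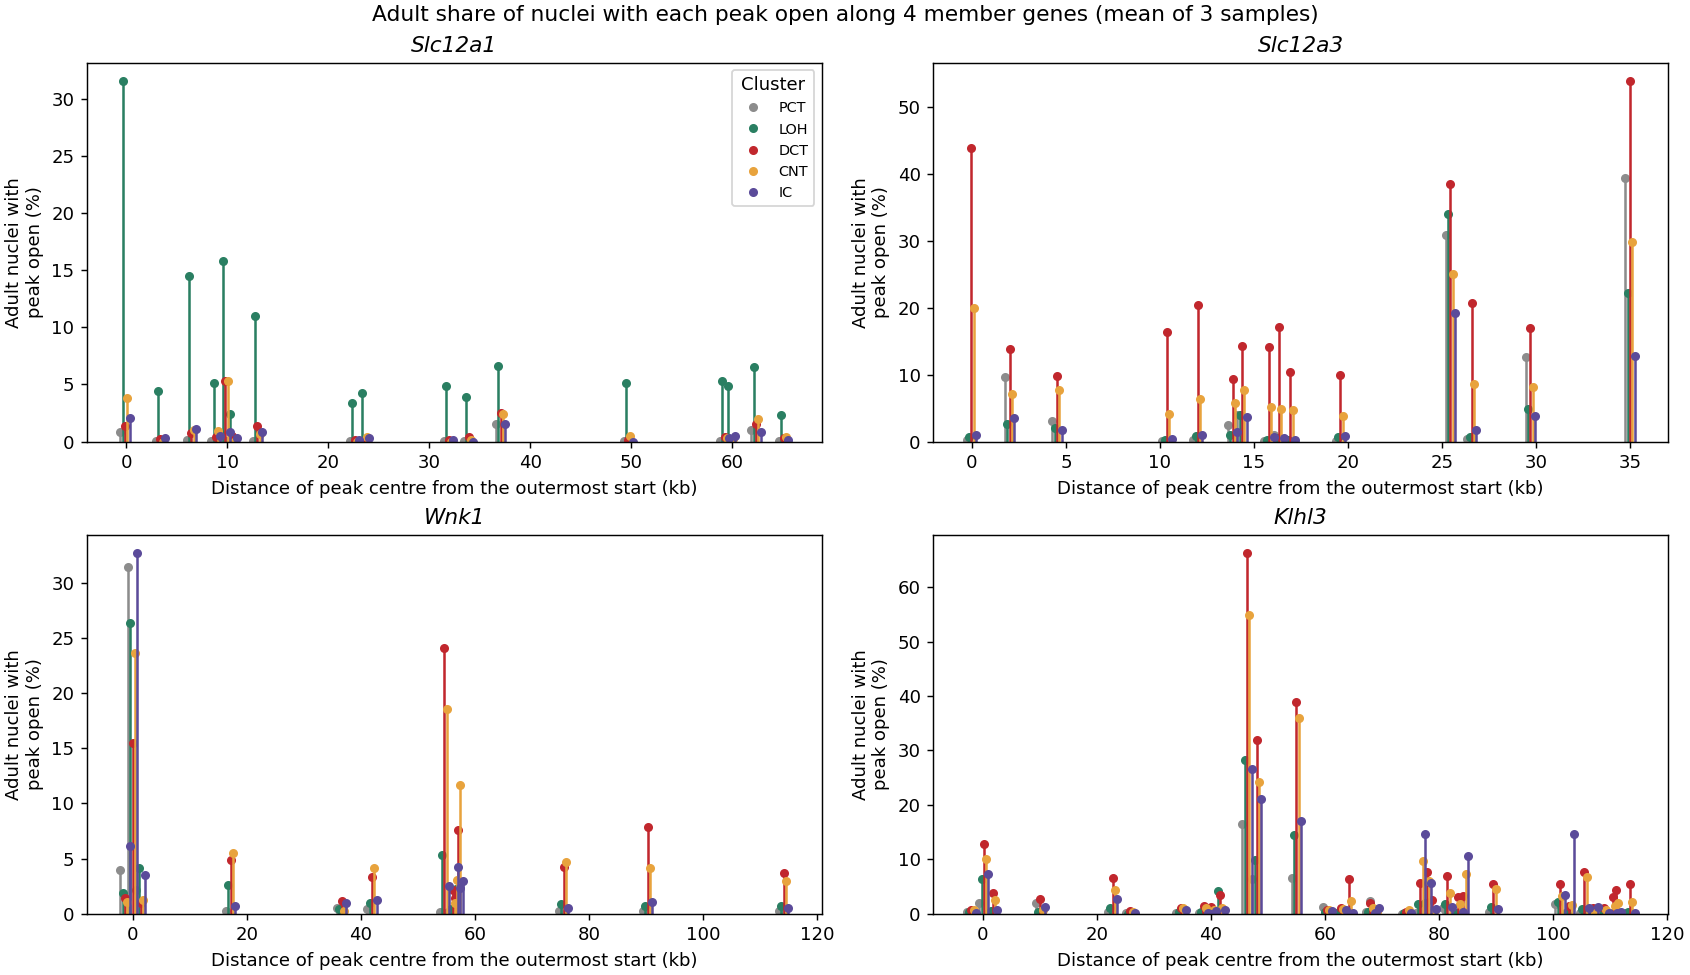
Mean share of adult nuclei (%, n = 3 samples, vertical axis) with each peak open against its distance from the outermost transcript start (kb, horizontal axis) for Slc12a1, Slc12a3, Wnk1 and Klhl3. Colours are 5 clusters. The Slc12a1 peaks are most open in LOH among the clusters shown, and the Wnk1 start is open in every cluster shown. Klhl3 has its tallest peak in intron 4. The Slc12a3 peaks rise mainly in DCT, but those at its second start and last exon are open in all 5 clusters.

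Wnk1 (chromosome 6, 119923969 to 120038672, minus strand) held 13 peaks, of which 3 lay at annotated starts, 2 in exons, 7 in introns and 1 upstream. The first start was open in every cluster, and the most open intron peak was open mainly in DCT and CNT. In kidney a short form of WNK1 that lacks the kinase domain starts inside the gene and is known from the distal nephron. 3 sequences are shown on the minus strand (GRCm38/mm10): the bases before the first exon (chr6:120038696-120038995), the centre of the intron 4 peak with the largest lead (chr6:119983879-119984178), and the centre of a peak that ends 53 bp before the annotated start of transcript Wnk1-201 (chr6:119981512-119981811). The last was chosen after its values were seen. Capitals mark a TFAP2 match in the first, and the others hold none of the 3 motifs.
Wnk1 upstream: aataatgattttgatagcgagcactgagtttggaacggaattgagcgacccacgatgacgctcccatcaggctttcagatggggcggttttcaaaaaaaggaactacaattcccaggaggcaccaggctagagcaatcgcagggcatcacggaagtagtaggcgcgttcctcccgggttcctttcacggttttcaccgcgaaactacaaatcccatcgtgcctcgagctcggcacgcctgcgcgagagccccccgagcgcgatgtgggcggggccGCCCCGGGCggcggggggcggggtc
Wnk1 intron 4 peak: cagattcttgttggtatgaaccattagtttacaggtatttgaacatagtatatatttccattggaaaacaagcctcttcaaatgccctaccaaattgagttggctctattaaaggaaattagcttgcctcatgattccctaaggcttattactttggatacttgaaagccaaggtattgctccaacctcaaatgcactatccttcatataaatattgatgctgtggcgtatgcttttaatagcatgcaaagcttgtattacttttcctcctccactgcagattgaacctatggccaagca
Wnk1 peak near Wnk1-201: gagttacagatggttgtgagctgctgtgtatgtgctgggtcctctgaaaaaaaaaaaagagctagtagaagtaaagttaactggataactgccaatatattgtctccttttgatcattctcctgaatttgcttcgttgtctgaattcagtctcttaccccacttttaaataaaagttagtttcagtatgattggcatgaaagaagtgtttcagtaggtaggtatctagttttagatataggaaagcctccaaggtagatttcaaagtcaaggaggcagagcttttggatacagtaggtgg
The upstream bases have a GC content of 60.0%, the intron peaks of 37.7% and 38.0%. The central 300 bases of the start peak hold 30 CpG, against a median of 3 over all peaks.

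The Wnk1 start peak was open in 27.5% and 31.6% of DCT nuclei at P0 and in 10.9%, 8.47% and 27.0% in adult samples. In IC it was open in 37.5% and 48.2% of nuclei at P0 and in 37.2%, 14.5% and 46.3% later. The start peak therefore did not mark the distal convoluted tubule. The intron 4 peak, 54643 bp after the start, was open in 15.7% and 19.3% of DCT nuclei at P0 and in 21.8%, 15.3% and 35.0% in adult samples (log2 1.01, adjusted p = 0.0544). In CNT it rose from 5.19% and 8.91% to 15.7%, 12.9% and 27.1% (log2 1.85, SE 0.34, adjusted p = 4.46e-04), and the 9 alternatives that could test it, which do not include thinning, kept this call. In PCT it was closed, with 0% of nuclei in both P0 samples and 0.193%, 0.0407% and 0.261% in adult samples.

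The peak beside the Wnk1-201 start was open in 1.48% and 2.97% of CNT nuclei at P0 and in 13.3%, 7.82% and 13.9% in adult samples (log2 2.75, SE 0.55, adjusted p = 7.73e-04). In DCT its shares of 5.88% and 8.77% at P0 and 2.97%, 5.86% and 13.8% later overlapped. At the level of the whole gene, DCT ranked first at both stages, overlapping with IC at P0 and with CNT in adult samples. In DCT the level was 118.5 and 125.3 CPM at P0 and 196.9, 167.4 and 186.6 CPM in adult samples, a difference that missed the threshold (log2 0.49, adjusted p = 0.132). In CNT it rose from 82.0 and 94.5 to 176.8, 146.8 and 189.3 CPM (log2 0.90, SE 0.17, adjusted p = 6.39e-04, and 0.0953 after thinning). In LOH it rose from 84.5 and 90.3 to 117.7, 115.5 and 129.8 CPM (log2 0.54, adjusted p = 5.40e-03), which was lost without P0 sample 1 (adjusted p = 0.0748), without P0 sample 2 (0.0655) and after thinning (0.0816).

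Wnk4 (chromosome 11, 101260567 to 101277409, plus strand), the kinase that acts on Slc12a3 in the distal nephron, held 5 peaks. Its start peak also lies within the windows of Ramp2 and Vps25, so its calls cannot be given to Wnk4 alone. That peak was open in 49.0% and 42.1% of DCT nuclei at P0 and in 40.6%, 20.9% and 50.7% in adult samples, and in 33.5% and 33.8% of PCT nuclei at P0 and 39.9%, 27.3% and 56.7% later. This shared start was thus open in the proximal tubule as well as in DCT. In LOH the Wnk4 level rose from 52.2 and 54.8 to 103.6, 65.5 and 102.7 CPM (log2 0.82, SE 0.19, adjusted p = 3.56e-03), and every alternative kept this call. In CNT it rose from 52.4 and 69.3 to 127.8, 89.5 and 110.7 CPM (log2 0.76, adjusted p = 7.49e-03), a call lost without P0 sample 1 (0.60, adjusted p = 0.184), with DESeq2 (0.0734) and after thinning (0.395). In DCT the values of 92.2 and 66.3 CPM at P0 and 145.7, 106.9 and 115.6 CPM later did not pass (log2 0.50, adjusted p = 0.230). Wnk4 was also called higher in PCT (log2 0.64) and Stroma1 (0.66), and lower in the NP cluster (log2 -0.62). None of these held throughout. That in PCT was lost without P0 sample 1 (log2 0.49) or P0 sample 2 (0.80) and after thinning (0.52, adjusted p = 0.16). That in NP was lost without P0 sample 1 (log2 -0.61), the P21 sample (adjusted p = 0.0559), P56 sample 1 (0.0963) or P56 sample 2 (0.189). That in Stroma1 was lost without any sample but P56 sample 1 (log2 0.58 to 0.67). It was also lost with DESeq2 (adjusted p = 0.191) and the replicate block (0.0675).

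Stk39 and Oxsr1, the closely related kinases that act between the Wnk kinases and the carriers, were both open across segments and differed in the order of the clusters. Stk39 (chromosome 2, 68210445 to 68472268, minus strand) is the longest gene of the set and held 75 peaks, and Oxsr1 (chromosome 9, 119238432 to 119322427, minus strand) held 17. All 17 Oxsr1 peaks also lie in the annotated span of Slc22a14, so none can be given to Oxsr1 alone. Over the 65 sums Pearson r between their levels was -0.35, a weak relation given as a description, since the sums share libraries and depth, and both genes were called higher in adult LOH and CNT.

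The Stk39 level was highest in DCT, LOH and CNT in adult samples, which overlapped, and lowest in PCT. In LOH it was 243 and 227 CPM at P0 and 323, 399.8 and 341 CPM in adult samples (log2 0.66, SE 0.14, adjusted p = 1.69e-03), and every alternative kept the call. In DCT it was 266 and 285 CPM at P0 and 442, 408 and 317 CPM later (log2 0.39, adjusted p = 0.242). In PCT it fell from 136 and 129 to 78.4, 92.9 and 71.3 CPM (log2 -0.57, SE 0.14, adjusted p = 0.0104). That call was lost without P0 sample 1 (log2 -0.54), without P0 sample 2 (-0.61) and after thinning (-0.49, adjusted p = 0.174). In CNT the change (log2 0.47, adjusted p = 0.0369) was lost without P0 sample 2 (0.24, adjusted p = 0.452), with DESeq2 (0.151), with its size factors (0.0515) and after thinning (0.395). Among its peaks, 15 of 35 tested in LOH were higher and 4 lower in adult samples (24.5% and 29.9% of all peaks), and 9 of 22 tested in PCT were lower, by log2 -3.54 to -1.30 (17.6% of all peaks). The start peak, with 44 CpG in its centre, was open in 31.0% and 35.9% of LOH nuclei at P0 and in 30.5%, 21.4% and 42.9% later (log2 1.01, adjusted p = 5.06e-04). This peak call was lost without P0 sample 2 (log2 0.98) and after thinning (log2 0.67, adjusted p = 0.0832). In endothelial cells the gene was called lower (log2 -0.51, adjusted p = 0.0456). That call was lost without P0 sample 1 (log2 -0.31), P0 sample 2 (-0.68), the P21 sample (adjusted p = 0.0713) or P56 sample 2 (0.116). It was also lost with DESeq2 (0.113), with its size factors (0.0518) and after thinning (0.106). An intron peak 56268 bp after the start, chosen after its values were seen, was led by IC, with 32.5% and 25.0% of nuclei at P0 and 17.0%, 14.9% and 24.5% later, and rose in CNT from 3.70% and 4.95% to 12.1%, 12.6% and 21.1% (log2 2.27).

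**Figure D4:**
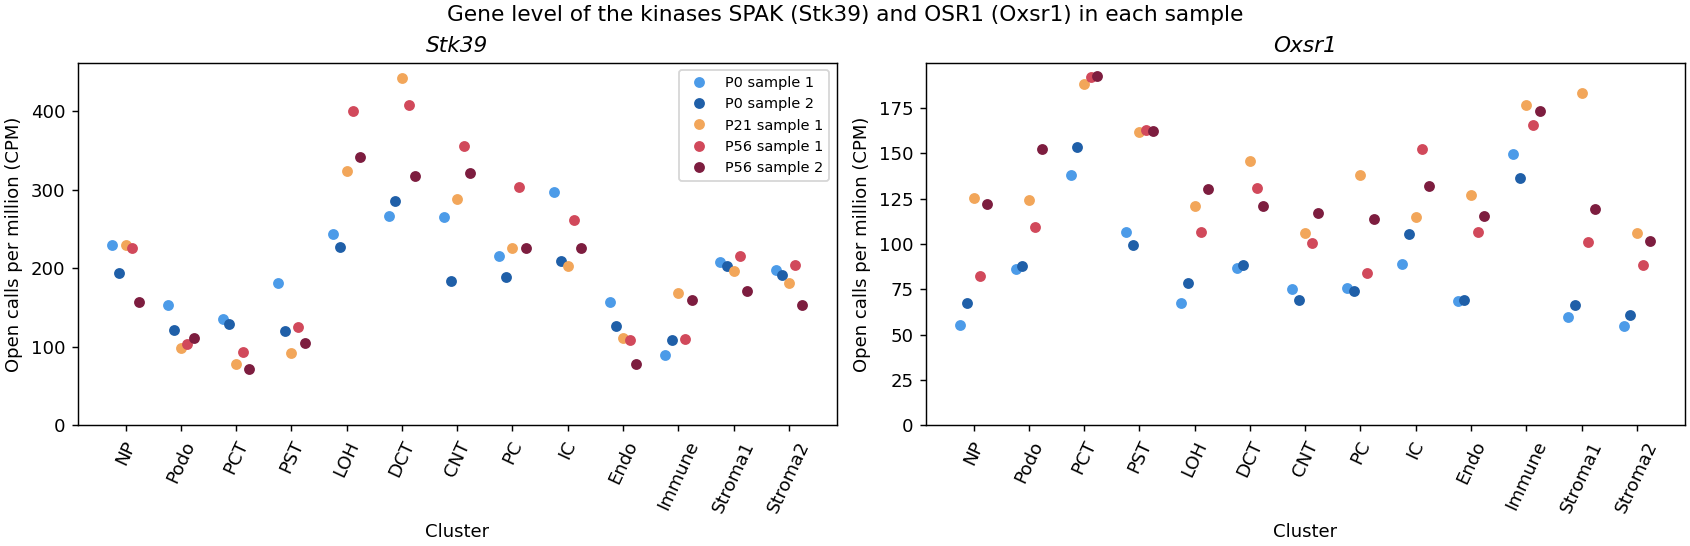
Level (CPM, vertical axis) of Stk39 and of Oxsr1 in each of 5 samples over the 13 clusters (horizontal axis). Each point is 1 sample. In adult samples Stk39 is lowest in PCT, at 71.3 to 92.9 CPM, and Oxsr1 is highest there, at 188 to 193 CPM.

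By CPM the Oxsr1 level was highest in PCT and next in immune cells at both stages, while after thinning immune cells came first, and by the share of nuclei with any peak open PST did. In PCT it was 138 and 154 CPM at P0 and 188, 192 and 193 CPM in adult samples (log2 0.53, adjusted p = 5.87e-03). In PST it was 107 and 99.6 CPM at P0 and 162, 163 and 162 CPM later (log2 0.72). Immune cells held 149 and 137 CPM at P0 and 177, 165 and 174 CPM later, without a call. In LOH it rose from 67.5 and 78.6 to 121, 106 and 130.1 CPM (log2 0.78, adjusted p = 1.01e-03), the only one of its 10 calls that every alternative kept. The other calls, all higher in adult samples at log2 0.50 to 0.91, were each lost under at least 1 alternative: 8 of the 10 were lost without P0 sample 1 (adjusted p 0.0730 to 0.202), 6 without P0 sample 2 (0.0620 to 0.243), 2 without the P21 sample (0.0618 and 0.0668) and 3 without P56 sample 2 (0.0908 to 0.166). Thinning lost 7 (0.101 to 0.936), with the estimate in PC at 0.064 and that in CNT at 0.18, against 0.50 and 0.54, and the call in Stroma1 was lost after thinning alone (log2 0.43, adjusted p = 0.447). For PCT the adjusted p was 0.156 without P0 sample 1 and 0.0620 without P0 sample 2, and for PST 0.107 and 0.158.

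The 2 named peaks inside the Oxsr1 gene favoured the proximal tubule, while its start peak was broadly open. Of the 17 Oxsr1 peaks, 8 were most open in PST and 3 in PCT in adult samples (18.2% and 7.66% of all peaks). The peak over the last exon (exon 18) was open in 19.3% and 15.2% of PST nuclei at P0 and in 16.9%, 19.5% and 41.1% later, and in 0.096% to 1.84% of LOH nuclei. The intron 4 peak, 45833 bp after the start, rose in PCT from 9.14% and 9.34% to 16.1%, 13.5% and 18.8% (log2 1.18, SE 0.22, adjusted p = 1.41e-03). The peak lost this call without P0 sample 1 (log2 1.01) and after thinning (log2 0.62, adjusted p = 0.340). In PST it rose from 1.21% and 3.57% to 9.40%, 10.8% and 20.2% (log2 2.59), a call lost without P0 sample 1 (2.18, adjusted p = 0.126) and without P0 sample 2 (3.87, adjusted p = 0.102). The centre of this peak (chr9:119276444-119276743, minus strand, GRCm38/mm10) is shown as the Oxsr1 peak with the smallest stage p in PCT, and capitals mark a TFAP2 match.
Oxsr1 intron 4 peak: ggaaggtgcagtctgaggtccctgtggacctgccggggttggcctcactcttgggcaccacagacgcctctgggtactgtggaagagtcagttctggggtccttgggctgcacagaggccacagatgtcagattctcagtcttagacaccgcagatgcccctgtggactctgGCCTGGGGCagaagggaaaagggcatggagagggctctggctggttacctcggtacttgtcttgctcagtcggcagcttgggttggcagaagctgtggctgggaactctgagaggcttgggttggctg

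Klhl3 (chromosome 13, 58000228 to 58113592, minus strand) held 35 peaks, of which 18 were most open in DCT in adult samples (3.23% of all peaks). 1 of the 35 also lies in Mir874. Its level in DCT was 374 and 364 CPM at P0 and 755, 526 and 507 CPM in adult samples (log2 0.57, SE 0.17, adjusted p = 0.0495). This call sat at the threshold and was lost under 7 alternatives, among them DESeq2 (adjusted p = 0.101) and the fits without P0 sample 1 (0.217), P0 sample 2 (0.227), the P21 sample (0.0773) and P56 sample 2 (0.0583). In CNT the level rose from 179 and 227 to 451, 371 and 417 CPM (log2 0.97, SE 0.15, adjusted p = 6.88e-05), and every alternative kept this call. In endothelial cells it fell from 196 and 199 to 106, 123 and 94.4 CPM (log2 -0.84, SE 0.15, adjusted p = 1.57e-03), also kept by every alternative. Klhl3 was lower in the NP cluster too (log2 -0.52). That call was lost without P0 sample 2 (log2 -0.48), the P21 sample (adjusted p = 0.285) or P56 sample 1 (0.199), and with DESeq2 (0.079). In LOH the call (log2 0.46, adjusted p = 9.52e-03) was lost without P0 sample 1 (log2 0.50), without P0 sample 2 (0.45) and after thinning (0.42, adjusted p = 0.0786).

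The peak with the largest lead lies in intron 4, 46347 bp after the start, and spans 2105 bp. It was open in 70.6% and 70.2% of DCT nuclei at P0 and in 75.3%, 43.3% and 80.2% in adult samples, so it was already open in DCT at birth (log2 0.46, adjusted p = 0.301). In CNT the shares were 34.1% and 48.5% at P0 and 59.0%, 33.7% and 71.8% later (log2 0.79, adjusted p = 4.98e-03). This CNT call was lost without P0 sample 1 (log2 0.73), without P0 sample 2 (0.86) and after thinning (0.535, adjusted p = 0.788). In endothelial cells the shares were 46.1% and 46.6% at P0 and 13.1%, 14.8% and 11.4% in adult samples. Per open call this was not a significant fall (log2 -0.44, adjusted p = 0.119). Adult endothelial nuclei held a mean of 2823 open peaks, against 6959 at P0. The centre of the peak (chr13:58067095-58067394, minus strand, GRCm38/mm10) is shown as the most open DCT site of the set outside a transcript start and holds none of the 3 motifs.
Klhl3 intron 4 peak: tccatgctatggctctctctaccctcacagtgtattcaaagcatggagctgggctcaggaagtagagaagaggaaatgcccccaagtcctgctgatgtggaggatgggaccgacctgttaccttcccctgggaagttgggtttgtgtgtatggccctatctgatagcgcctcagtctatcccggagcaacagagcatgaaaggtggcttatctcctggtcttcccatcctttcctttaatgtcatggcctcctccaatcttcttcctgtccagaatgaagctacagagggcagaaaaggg

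Other Klhl3 peaks were less open in adult endothelial cells also per open call. The start peak fell there from 15.2% and 11.9% to 0.905%, 1.83% and 2.09% (log2 -1.58, adjusted p = 9.99e-04, and 0.0742 without P0 sample 1), and was also lower in PCT (log2 -1.42), PST (-1.42), PC (-1.05) and Stroma2 (-0.94). Of these 4, each was lost without 1 or more samples: PCT without P0 sample 2 (adjusted p = 0.0851), PST without any sample but P56 sample 1 (0.0621 to 0.450), PC likewise (0.0862 to 0.267), and Stroma2 without P0 sample 1 (0.0983), P0 sample 2 (0.170) or the P21 sample (0.0691). An intron peak 54993 bp after the start, chosen after its values were seen, fell from 16.1% and 15.5% to 1.36%, 2.11% and 1.62% of endothelial nuclei (log2 -1.74, adjusted p = 2.56e-04), while in DCT it was open in a mean of 51.4% of nuclei at P0 and 38.8% in adult samples. In all, 5 of 8 tested Klhl3 peaks were lower in adult endothelial cells, against 17.0% of all tested peaks that were lower there. In CNT 5 of 8 were higher, by log2 0.79 to 1.65 (11.7% of all peaks). Single Klhl3 peaks were led by other cells, such as one 84244 bp after the start that was open in 17.5% and 21.4% of IC nuclei at P0 and in 9.57%, 8.15% and 13.8% later, chosen in the same way.

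**Figure D5:**
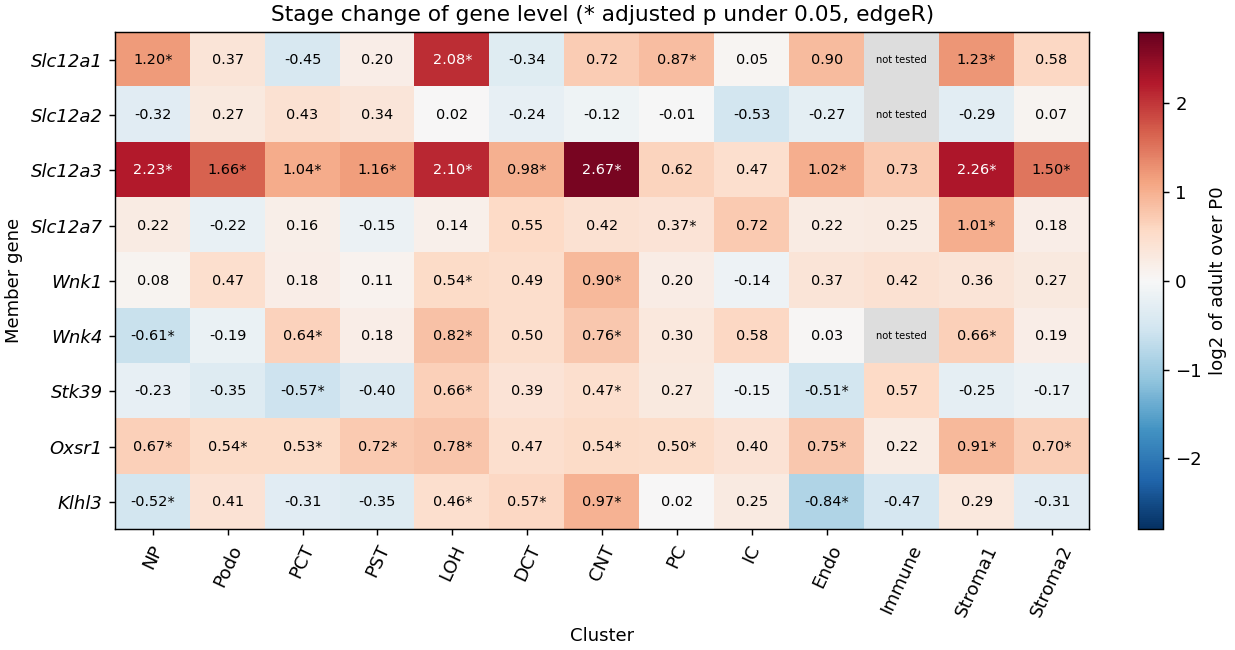
Stage change of each member gene (rows) in the 13 clusters (columns), as the log2 ratio of adult (n = 3) to P0 (n = 2) samples from edgeR. A star marks an adjusted p under 0.05, and grey cells were not tested. LOH has 7 and CNT 6 members called higher, and Klhl3 in endothelial cells and Stk39 in PCT are among the 5 calls in the other direction.

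The 9 genes were then counted over all clusters. Of 114 gene and cluster pairs that passed the filter on low counts, out of 117, 37 were higher in adult samples and 5 lower, against 11.4% of all tested pairs that were higher and 14.6% that were lower. Of 423 peak and cluster pairs, 129 were higher and 42 lower, against 16.0% and 18.0% of all tested pairs. Of the 205 peaks, 143 entered at least 1 test, and the others were too sparse. The pairs are not independent, since clusters share samples and peaks share genes.

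LOH and CNT held the most calls. In LOH 7 of 9 genes were higher and 0 lower (23.4% and 29.5% of all genes), with a median log2 change of 0.66 for the members and -0.04 for all genes. In CNT 6 of 9 were higher and 0 lower (10.1% and 15.7% of all genes), with medians of 0.72 and 0.04. In DCT 2 of 9 were higher, Slc12a3 and Klhl3, and 0 lower (1.57% and 4.93% of all genes), with medians of 0.49 and 0.01. The DCT sums of P0 were among the smallest, with 51 and 57 nuclei. In Stroma1 5 genes were higher (14.3% of all genes), and in PCT 3 were higher and 1 lower (12.9% and 15.8% of all genes). In IC and immune cells neither edgeR nor DESeq2 called a member, and edgeR called 1.47% and 0.0291% of all genes there. In immune cells 6 members were tested.

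Peaks were counted in the same way. In LOH 53 of 103 tested member peaks were higher and 8 lower, against 24.5% and 29.9% of all peaks there, and 17 of the 53 belonged to Slc12a1. In CNT 18 of 32 were higher (11.7% of all peaks), and in DCT 3 of 27 were higher (2.83%). In PCT 15 of 84 were higher and 14 lower (16.3% and 17.6% of all peaks), and 9 of these 14 lay in Stk39.

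To ask whether LOH and DCT differed in their stage change, an interaction of stage and cluster was fitted with the sample as a block. These clusters were named partly from Slc12a1 and Slc12a3, so for these 2 genes the test is not independent of the naming. The part of cluster assignment in their differences was not tested. 2 of the 9 members passed, against 5.51% of all genes. The change of Slc12a1 was larger in LOH than in DCT by log2 2.25 (SE 0.32, adjusted p = 1.04e-05), and that of Slc12a3 by 1.03 (SE 0.19, adjusted p = 4.37e-04). The Slc12a3 difference moved with its last exon and second start peaks, which rose in LOH by log2 3.03 and 2.91. The first was chosen after its values were seen, and leaving out peaks that rose lowers the LOH change by construction. Without the last exon peak the Slc12a3 difference was 0.77 (adjusted p = 4.58e-03), and without that and the second start it was -0.12 (adjusted p = 0.805). After thinning the Slc12a1 difference was 2.68 but no longer passed (adjusted p = 0.131). For Slc12a7 the difference was -0.55 (adjusted p = 0.0973), and it passed without the P21 sample (-0.59, adjusted p = 0.0476).

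Among the 205 peaks, 43 were most open in DCT in adult samples, 25 in LOH, 24 in PST, 17 in podocytes, 16 in CNT and 16 in IC. Of all peaks open in adult samples, 3.23% were most open in DCT, 2.26% in LOH, 18.2% in PST, 8.80% in podocytes, 5.16% in CNT and 7.94% in IC. Slc12a1 held 17 of the 25 LOH peaks, and Klhl3 and Slc12a3 held 18 and 12 of the 43 DCT peaks. The LOH and DCT clusters were named partly from Slc12a1 and Slc12a3, so these counts are not independent of the naming. The starts ranged widely in base composition. In the central 300 bases the starts of Slc12a2, Stk39, Wnk1 and Oxsr1, which were broadly open, held 56, 44, 30 and 26 CpG. The 2 starts of Slc12a7 held 21 and 20, that of Klhl3 held 15, and those of Slc12a3 held 6 and 4. The Wnk4 start held 5, although it too was open in many clusters, and the Slc12a1 start held 1. Over all peaks the median was 3, and 3.67% of peaks held 20 or more.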

How the data were processed

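SnATAC-seq was analysed in 2 P0, 1 P21 and 2 P56 mouse kidney samples. Per the methods, the authors aligned reads to mm10 with Cell Ranger ATAC (version 1.1.0 in the submitters' processing notes), called peaks with MACS2 in each cell type, merged them, and clustered nuclei with SnapATAC, Harmony and Louvain. The deposited matrix holds counts that the authors binarized (1 for an open peak), not scaled for depth, and 89197 of its entries are stored as 0. The sample and cluster names and the peak positions are other deposited columns, used as labels. A doublet search is not stated for the snATAC-seq data, and none was done here. The metadata names samples by stage and a batch number, which was matched to the sample number of the titles. The 664 nuclei outside the 13 clusters were left out.

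Open calls were summed per gene (GENCODE M21), cluster and sample, with a minimum of 20 nuclei per sum. P0 and adult sums were compared within each cluster over all genes, and over all peaks, with R 4.3.3 and edgeR 4.0.16 (limma 3.58.1): the quasi-likelihood test on TMM-scaled sums, after filterByExpr (minimum count 10, minimum total 15), with Benjamini-Hochberg adjustment at 0.05. P-values measure the spread between these samples, whose animals are not stated. Alternatives were DESeq2 1.42.0, its size factors, no filter, a replicate block, thinning to 1000 open peaks per nucleus, the gene body alone, 5 kb upstream, and leaving out each sample, where a lone P0 sample is assumed to vary like the adult ones. Shallower nuclei, 77 to 257 per sample, were left out of the thinning. Intervals are exact binomial ones and cover counting error only, and a low sum limits what a test can show. The stage test alone was tried on simulated counts, for LOH and DCT, with the same fixed spread for every gene or peak. These runs do not show its error rate in the real samples. Named for each member were the peak at the outermost start, further start peaks among its 3 most open, the peak with the largest lead over the median cluster in adult samples, and that with the smallest stage p in the gene's highest cluster. The members, lists and rules were chosen with earlier results of these data known. Tables and plots were made in Python 3.11.15 (scipy 1.17.1, matplotlib 3.10.9, numpy 2.4.6, pandas 2.3.3), and sequences came from RefSeq GRCm38.p6. The scRNA-seq files were not used, and some genes of the list of other pathway genes are not reported here.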

Additional observations from a re-analysis of the deposited data

Results flagged for a closer look

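2 members differed in their stage change between LOH and DCT by the interaction test, in edgeR with the sample as a block. Both are genes from which these clusters were partly named, and the part of that naming in the differences was not tested. For Slc12a1 the change was larger in LOH by log2 2.25, with every adult sample above P0 in LOH, while in DCT the adult values of 34.3 to 40.5 CPM lay below the P0 values without passing the test. For Slc12a3 it was larger in LOH by log2 1.03, although the gene was higher in adult samples in both clusters. The second difference was -0.12 when the last exon peak and the second start peak of Slc12a3 were left out, a choice made after the data were seen. Leaving out peaks that rose in LOH lowers the LOH change by construction, so no conclusion is drawn from this value.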

How the results depend on the processing

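The test called 42 pairs of a member gene and a cluster. As total calls under each alternative, thinning gave 14, DESeq2 gave 30, the replicate block gave 38, leaving out 1 sample gave 21 to 55, and the NP cluster left out, an alternative added after seeing the data, gave 37. For pairs of a member peak and a cluster the test called 171, and as totals thinning gave 17, DESeq2 112, the replicate block 156, no filter 250, leaving out 1 sample 82 to 239, and without the NP cluster 168. The samples were not taken as paired by their numbers, since the metadata number batches within a stage, no source says that same-numbered samples were prepared together, and there are only 2 numbers. The deviations of P0 and P56 samples of the same number correlated by 0.01 to 0.23, above 0.1 in 10 of 13 clusters. The block ended the calls of Slc12a1 (adjusted p = 0.0512) and Slc12a7 (0.0782) in PC, Wnk4 in Stroma1 (0.0675) and Klhl3 in DCT (0.0692). Thinning ended 20 of the 42 gene calls, and some others could not be tested after it. 28 of the 42 gene calls and 34 of the 48 calls of named peaks were lost under at least 1 alternative.

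The interaction called 2 members, 1 after thinning and 2 to 3 without 1 sample, and the Slc12a3 difference turned to -0.12 without its last exon and second start peaks. By direction, 3 named peaks turned: the Slc12a3 start in DCT to -0.28 after thinning, the Oxsr1 start in PC to -0.031 after thinning, and the Stk39 start in NP to -0.38 without the filter. No other called gene or named peak changed direction under the alternatives run, and the cause of these changes was not tested. The highest cluster by CPM was also highest by the share of nuclei with any peak open for 5 of 9 members at P0 and 5 in adult samples, after thinning for 5 and 7, and without 1 sample for 5 to 6 and for 8. Of the 45 genes named as most like a member, 19 remained with Spearman correlation and 15 in adult samples alone. Calls near the minimum of 10 counts rest on few open calls, and the DCT sums of P0 rest on 51 and 57 nuclei.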

Other observations

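Of 20 other genes of the pathway, 19 were tested in LOH, where 9 were higher in adult samples and 4 lower (23.4% and 29.5% of all genes). Those higher included the potassium channel Kcnj1 (ROMK), which recycles potassium to the thick ascending limb lumen, with 57.3 and 58.6 CPM at P0 and 185, 174 and 181 CPM in adult samples (log2 1.70, adjusted p = 7.86e-06, edgeR). They also included Bsnd (1.32), Kcnj16 (1.38), Kcnj10 (0.53), the ubiquitin ligase gene Nedd4l (0.83), the mineralocorticoid receptor gene Nr3c2 (0.91), Ppp1r1a (1.52), Cab39l (0.72) and Slc12a4 (0.96). Lower were Slc12a8 (-1.94), Wnk2 (-0.95), Slc12a5 (-0.80) and Hsd11b2 (-0.64).

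In CNT 6 of 19 were higher and 4 lower (10.1% and 15.7% of all genes). Nr3c2 rose there from 174 and 189 to 354, 385 and 376 CPM (log2 0.99) and Kcnj1 from 49.0 and 49.1 to 160.4, 162 and 178 CPM (log2 1.72). Wnk2 (-2.13), Slc12a8 (-2.05), Slc12a5 (-1.24) and Klhl2 (-0.77), the paralogue of Klhl3, were lower. In DCT 1 of 18 was higher, Ppp1r1a (log2 1.00, adjusted p = 0.0372), and 1 lower, Slc12a8 (-1.97, adjusted p = 3.13e-03), against 1.57% and 4.93% of all genes. In PCT 3 of 20 were higher and 6 lower (12.9% and 15.8% of all genes).

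The genes whose level followed each member most closely over the 65 sums were named by Pearson r of log2(CPM + 1), among 21782 genes that share no peak with it. The sums share libraries, depth and cell types, so r describes these samples alone. For Slc12a1 they began with 5930438M14Rik (0.75) and Spink4 (0.74), for Slc12a2 with Zfp397 (0.71), for Slc12a3 with Gm36264 (0.82), for Slc12a7 with Rufy3 (0.82), and for Wnk1 with Ubp1 (0.86). For Wnk4 the first was Ddo (0.87), for Stk39 Kctd1 (0.88), for Oxsr1 Setd3 (0.86) and for Klhl3 Atp6v1b1 (0.80), a proton pump subunit of intercalated cells. Between members r was highest for Slc12a3 with Oxsr1 (0.63) and Wnk1 with Klhl3 (0.62).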
